A study of Mus musculus with 2 samples.

Results

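The Slc25 family, the mitochondrial carriers, was followed across 2 sections of irradiated mouse intestine. Members were the symbols made of Slc25a and a number that held 20 or more counts over both sections together, which 39 of 47 such symbols did, among 20709 symbols with that many counts. Of the 8 others, Slc25a31 held 13 counts, Slc25a54 held 11, Slc25a2 held 7 and Slc25a41 held 5. The remaining 4 were Slc25a5, Slc25a14, Slc25a43 and Slc25a53, which lie on chromosome X and were listed at 0 in both sections. The members just inside the threshold were Slc25a18 with 47 counts and Slc25a27 with 178. The 39 members lie on 18 chromosomes.

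Carriers of this family sit in the inner mitochondrial membrane and exchange metabolites, nucleotides, cofactors and ions between the cytosol and the matrix. They feed the ATP synthase with phosphate and ADP, run the malate-aspartate shuttle, export citrate for lipid synthesis, and import acylcarnitines, amino acids, iron and coenzymes. Enterocytes, the absorptive cells of the villus, are rich in mitochondria and also make citrulline from glutamine and glutamate through ornithine.

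The study set 1 section of intestine from Dpf2 knockout mice against 1 from wild-type mice, both taken after 10 Gy of X-rays, and asks what DPF2, a subunit of the BAF chromatin remodelling complex, does in radiation injury. They are called the KO-labelled and the WT-labelled section. Frozen tissue was cut and laid over barcoded spots that capture RNA, and the deposited values are counts per gene and barcode. Neither group has an unirradiated section, and the deleted part of Dpf2, the tissue in which it was deleted, the age of the mice, the stretch of gut and the time after irradiation were not stated in what was available. Dpf2 itself held 2333 counts in the KO-labelled section, against 940 in the WT-labelled section. Per 1000000 counts of a section (CPM) that is 26.0 and 23.6. The log2 ratio was 0.14 (exact interval 0.03 to 0.25), so by total counts Dpf2 was not lower in the KO-labelled section. Leaving cell type markers and defensins out of the total takes 0.18 from every such ratio, so the direction depends on the scaling. Reads of undeleted exons would not check the labels, and every direction given here is between the 2 labelled sections.

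The depth of the KO-labelled section was 89754886 counts over 88056 barcodes, a median of 932 a barcode, and that of the WT-labelled section was 39824941 counts over 50970 barcodes, a median of 721. The sections share 45557 barcode names, which on such arrays need not be the same spots. With 1 section a genotype there is no test, no p-value and no replicate. All levels are CPM, taken over a section or over a group of squares. Ranges in brackets after a log2 ratio are exact 95% intervals that cover counting error only. Each section was cut by position into 4 parts, and their range shows the spread within a section and not between animals. The sections differed in makeup. Villus enterocyte markers (15 genes) summed to 35044 CPM in the KO-labelled section, against 448 CPM in the WT-labelled section, and Paneth cell markers of the crypt base (9 genes) to 5855 CPM, against 94491 CPM. Neutrophil markers (8 genes) summed to 4.6 CPM, against 539 CPM. The parts of the sections did not overlap in any of these 3 sums, and their part in the differences below was not tested. A difference in a level per section cannot tell fewer cells of a type from less RNA per cell.

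The promoters of 3 genes are printed because these genes, Slc25a45, Slc25a34 and Slc25a48, had the largest ratios between the sections in either direction. Each sequence runs from 250 bases before to 50 bases after a promoter start listed on GRCm38.p6. These starts are not the outer gene starts in RefSeq, which are 5877801 for Slc25a45, 141623891 for Slc25a34 and 56437960 for Slc25a48. The window of Slc25a48 lies inside that gene. They lie at chr19:5877572-5877871 on the plus strand, chr4:141623785-141624084 on the minus strand and chr13:56438105-56438404 on the plus strand. Capitals mark the letters AGGTCA or its reverse complement TGACCT, a hexamer that many nuclear receptors bind.
Slc25a45: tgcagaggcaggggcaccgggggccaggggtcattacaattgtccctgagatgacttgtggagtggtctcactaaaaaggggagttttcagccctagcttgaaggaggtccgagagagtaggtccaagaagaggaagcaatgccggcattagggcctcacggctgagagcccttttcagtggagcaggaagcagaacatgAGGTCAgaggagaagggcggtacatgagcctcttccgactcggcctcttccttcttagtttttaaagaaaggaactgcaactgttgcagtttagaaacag
Slc25a34: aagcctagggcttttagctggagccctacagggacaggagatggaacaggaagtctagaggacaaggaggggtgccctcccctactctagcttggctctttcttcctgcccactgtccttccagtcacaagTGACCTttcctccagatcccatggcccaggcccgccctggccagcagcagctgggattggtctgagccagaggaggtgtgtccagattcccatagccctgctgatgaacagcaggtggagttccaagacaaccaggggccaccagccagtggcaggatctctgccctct
Slc25a48: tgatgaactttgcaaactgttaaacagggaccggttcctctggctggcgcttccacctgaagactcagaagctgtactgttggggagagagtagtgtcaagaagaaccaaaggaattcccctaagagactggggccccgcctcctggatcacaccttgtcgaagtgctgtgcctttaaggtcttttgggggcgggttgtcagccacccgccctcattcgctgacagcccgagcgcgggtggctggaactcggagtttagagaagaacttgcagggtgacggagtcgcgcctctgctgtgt
The hexamer starts 50 bases before the listed promoter start in Slc25a45 and 119 bases before it in Slc25a34, and the letters are not in the window of Slc25a48. On either strand, AGGTCA stood in 16.3% of 32851 promoters of the same length in the RefSeq table, and in 4 of the 37 promoters that the table holds for 30 of the members, those of Slc25a34, Slc25a39, Slc25a45 and Slc25a47. TTTATGG, a form bound by CDX factors, stood in 1 of the 37 (Slc25a21) and in 2.75% of all. CAAAGTCCA (HNF4), TCAAGGTCA (ERR, which holds AGGTCA), the NRF1 motif and the HNF1 motif stood in 0 of the 37 and in 0.475%, 0.423%, 0.971% and 0.14% of all. A match describes letters and is not a shown site.

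Taken as 1 sum, the 39 members held 272182 counts, or 3033 CPM, in the KO-labelled section, and 64937 counts, or 1631 CPM, in the WT-labelled section, a ratio of 1.86. The 4 parts spanned 2955 to 3104 CPM in the KO-labelled section, against 1595 to 1705 CPM in the WT-labelled section. Slc25a3 alone held 29.8% of the family's counts in the KO-labelled section and 29.7% in the WT-labelled section, and without it the ratio was again 1.86. Without Slc25a3, Slc25a15 and Slc25a45 it was 1.48.

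Between the sections, 12 members were at least 2-fold higher in the KO-labelled section, against 15.4% of all symbols, and 7 were at least 2-fold lower, against 23.8% of all symbols. The median log2 ratio of the 39 members was 0.14, beside -0.25 over all symbols. All 4 parts of the KO-labelled section lay above all 4 of the WT-labelled section for 18 members (25.4% of all symbols) and below them for 11 (38.0% of all symbols), and the parts overlapped for 10. Scaling by the median of ratios adds 0.18 to every log2 ratio, and leaving the marker genes and defensins out of the total takes 0.18 away. Under all 3 scalings 10 members were at least 2-fold higher and 3 at least 2-fold lower, and the sign turned for 7 members, among them Slc25a4, Slc25a13, Slc25a21, Slc25a38, Slc25a40 and Slc25a46.

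**Figure D1:**
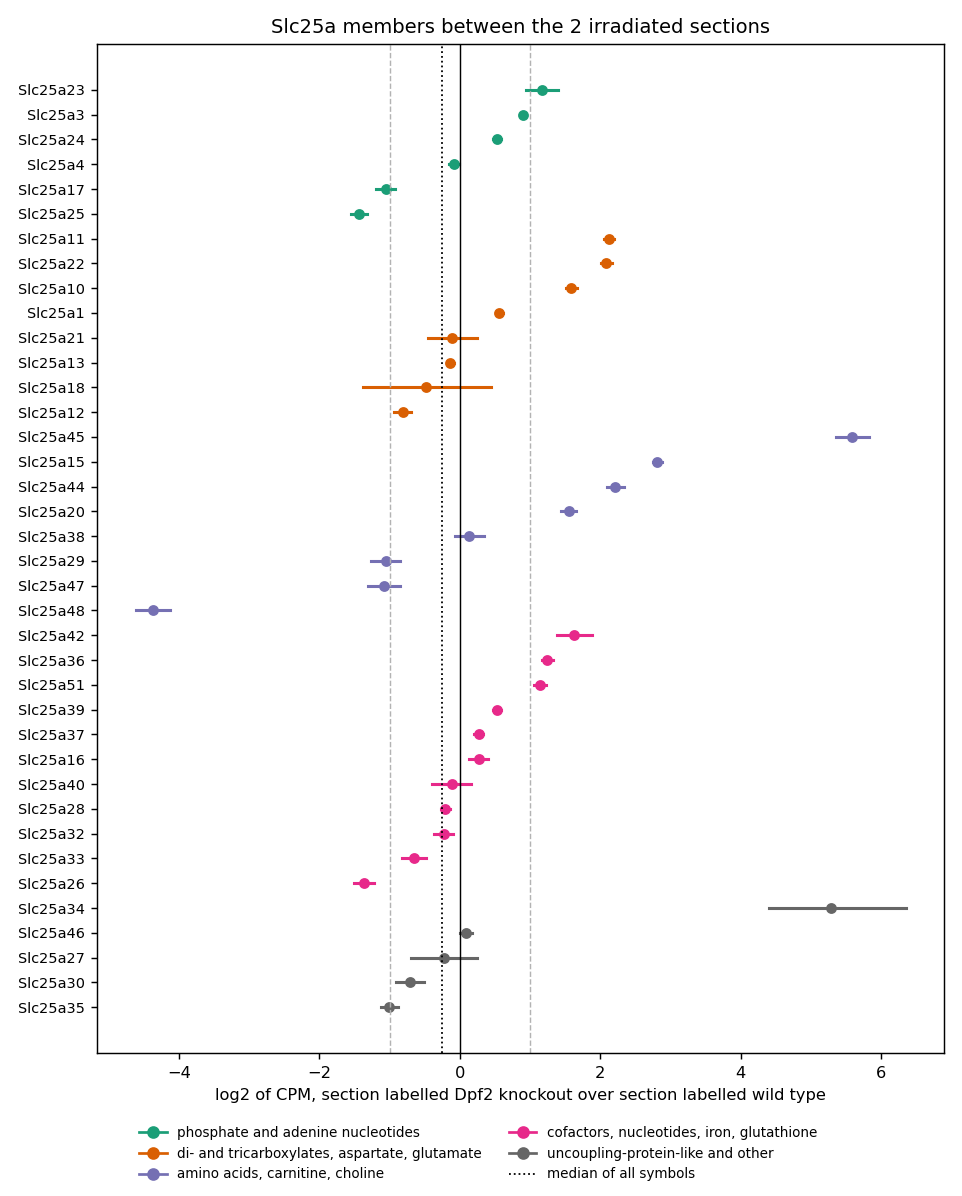
Log2 ratio of CPM, the KO-labelled section over the WT-labelled section, for 38 of the 39 members, grouped by substrate. Points are ratios, bars exact 95% counting intervals, the dotted line the median of all symbols (-0.25) and the dashed lines 2-fold. Slc25a45 (5.59) and Slc25a34 (5.29) stand far to the right and Slc25a48 (-4.37) far to the left.

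The carriers of phosphate and adenine nucleotides include those that supply the ATP synthase. In this group 1 of the 6 measured was at least 2-fold higher and 2 at least 2-fold lower, with a median log2 ratio of 0.22. By total counts, those past 2-fold were Slc25a23, Slc25a25 and Slc25a17, and not Slc25a3 or Slc25a4. Slc25a3, which imports phosphate, had 904 CPM in the KO-labelled section (846 to 972 over the 4 parts), against 485 CPM in the WT-labelled section (466 to 513). Its log2 ratio was 0.90 (0.88 to 0.92), just under 2-fold. Slc25a4, the ADP/ATP carrier typical of muscle, had 62.7 CPM in the KO-labelled section and 66.5 CPM in the WT-labelled section, with overlapping parts. The ADP/ATP carrier of dividing and epithelial cells, Slc25a5, has no value here, as all 2041 features matched to chromosome X in RefSeq were listed at 0. Its pseudogene Slc25a5-ps, whose reads may belong to near-identical copies, had 3.92 CPM in the KO-labelled section (352 counts) and 6.65 CPM in the WT-labelled section (265 counts), a log2 ratio of -0.76 (-1.0 to -0.53).

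The 3 calcium-regulated ATP-Mg/phosphate carriers went different ways. Slc25a23 had 10.5 CPM in the KO-labelled section and 4.70 CPM in the WT-labelled section, a log2 ratio of 1.17 (0.94 to 1.40). It was under 2-fold, at 0.98, with markers and defensins left out of the total. Slc25a24 had 116 CPM, against 80.8 CPM, at 0.53 (0.47 to 0.58). Slc25a25 was lower, at 12.5 CPM in the KO-labelled section (10.9 to 13.6 over parts), against 33.7 CPM in the WT-labelled section (31.5 to 38.3), a log2 ratio of -1.43 (-1.55 to -1.32). Slc25a17, a carrier of peroxisomes, had 10.9 CPM, against 22.6 CPM, at -1.06 (-1.19 to -0.92). With the median of ratios Slc25a17 was under 2-fold, at -0.87.

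Among carriers of di- and tricarboxylates, aspartate and glutamate, 3 of 8 were at least 2-fold higher and none at least 2-fold lower, with a median of 0.23. The shares over all symbols were 15.4% and 23.8%, with a median of -0.25. Slc25a11, the oxoglutarate/malate carrier of the malate-aspartate shuttle, had 173 CPM in the KO-labelled section (164 to 191 over parts), against 39.6 CPM in the WT-labelled section (34.2 to 43.6). That is a log2 ratio of 2.13 (2.05 to 2.20). The gene overlaps Rnf167, which had a log2 ratio of 2.20, and without the strand of the counting, which was not stated, their reads cannot be told apart. Slc25a22, a mitochondrial glutamate carrier, had 155 CPM in the KO-labelled section and 36.5 CPM in the WT-labelled section, at 2.09 (2.01 to 2.16). Slc25a10, which exchanges dicarboxylates for phosphate, had 98.9 CPM, against 32.8 CPM, at 1.59 (1.51 to 1.67). For these 3 genes the parts of the sections stood well apart.

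The aspartate/glutamate carriers, the other arm of the same shuttle, did not follow them. Slc25a13 (citrin) had 101 CPM in the KO-labelled section and 111 CPM in the WT-labelled section, with overlapping parts. Slc25a12 (aralar) had 13.4 CPM, against 23.6 CPM, a log2 ratio of -0.82 (-0.94 to -0.69). Slc25a1, which exports citrate for lipid synthesis, had 129 CPM, against 87.3 CPM, at 0.56 (0.51 to 0.62). Slc25a18, another glutamate carrier, held 29 counts and 18 counts, too few to give a direction at this depth, and Slc25a21, the oxodicarboxylate carrier, held 217 and 104 counts at -0.11 (-0.45 to 0.24).

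The carriers of amino acids, carnitine and choline held the widest spread, with 4 of 8 at least 2-fold higher and 3 at least 2-fold lower, and a median of 0.84. All symbols had 15.4% higher and 23.8% lower, and a median of -0.25. Slc25a45, reported to carry methylated basic amino acids used to make carnitine, held 16237 counts, or 181 CPM, in the KO-labelled section (168 to 191 over parts), against 150 counts, or 3.77 CPM, in the WT-labelled section (2.45 to 5.20). The log2 ratio was 5.59 (5.35 to 5.83), or 48.0-fold. Every part of the KO-labelled section stood above every part of the WT-labelled section. Slc25a48, reported as a choline carrier, was the reverse, with 158 counts, or 1.76 CPM, in the KO-labelled section (1.03 to 2.40), against 1450 counts, or 36.4 CPM, in the WT-labelled section (30.3 to 42.8). Its log2 ratio of -4.37 (-4.62 to -4.13) makes it 20.7-fold higher in the WT-labelled section.

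Slc25a15, the ornithine carrier that links the matrix and cytosolic steps of citrulline and urea synthesis, had 327 CPM in the KO-labelled section (305 to 370) and 46.5 CPM in the WT-labelled section (41.2 to 48.6). Its log2 ratio was 2.81 (2.75 to 2.88). Slc25a44, a carrier of branched-chain amino acids, had 74.6 CPM, against 16.1 CPM, at 2.21 (2.10 to 2.33). Slc25a20, which imports acylcarnitines for beta-oxidation, had 58.9 CPM (58.0 to 59.6 over parts), against 20.1 CPM (18.4 to 21.4), at 1.55 (1.44 to 1.66). Slc25a29, a carrier of basic amino acids, and Slc25a47, a carrier known mainly from liver, lie 14.0 kb apart on chromosome 12. They were lower by like amounts, at -1.06 (-1.26 to -0.85) and -1.08 (-1.31 to -0.85). With the median of ratios both were under 2-fold, at -0.88 and -0.90. Slc25a38, which brings glycine in for haem synthesis, had 7.48 CPM in the KO-labelled section and 6.80 CPM in the WT-labelled section, with overlapping parts.

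**Figure D2:**
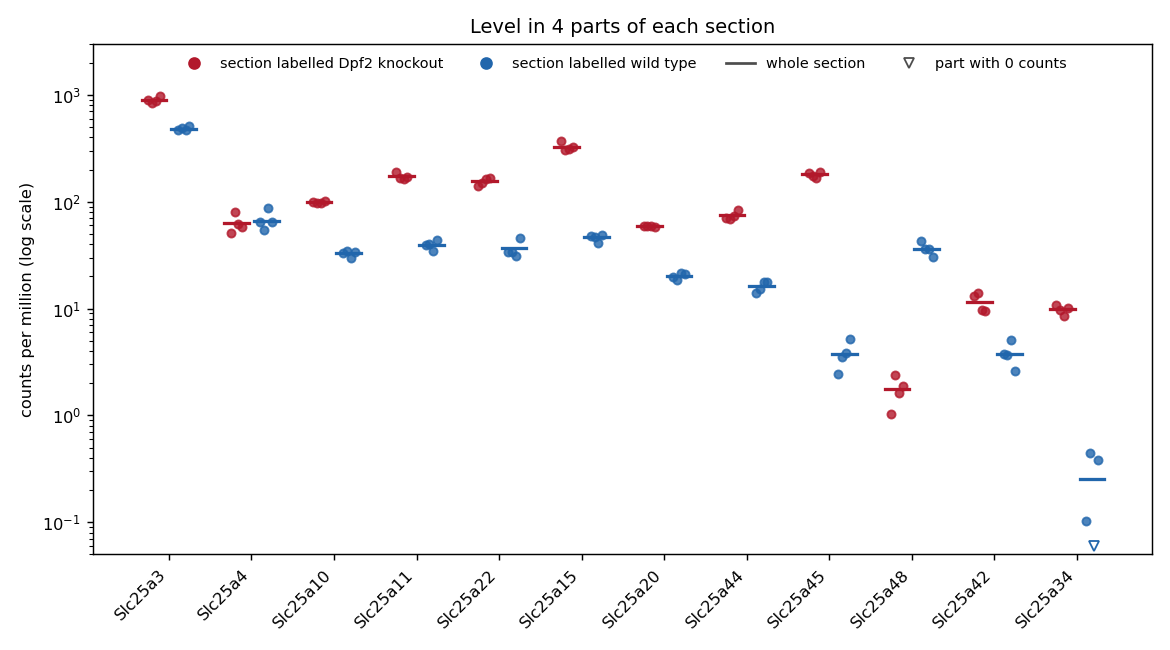
CPM on a log scale in the 4 parts of each section (points) and in the whole section (bars) for 12 members, red for the KO-labelled section and blue for the WT-labelled section. The parts overlap for Slc25a4 and stand apart for the other 11 members. An open triangle marks a part of the WT-labelled section with 0 counts of Slc25a34.

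Of the 12 measured carriers of cofactors, nucleotides, iron and glutathione, 3 were at least 2-fold higher and 1 at least 2-fold lower, with a median of 0.21. All symbols had 15.4% higher and 23.8% lower, and a median of -0.25. Slc25a42, which imports coenzyme A, had 11.5 CPM in the KO-labelled section and 3.72 CPM in the WT-labelled section, a log2 ratio of 1.63 (1.38 to 1.89). Slc25a36, a pyrimidine nucleotide carrier, had 96.4 CPM, against 40.7 CPM, at 1.24 (1.17 to 1.32), and Slc25a51, the NAD+ carrier, 77.1 CPM, against 35.0 CPM, at 1.14 (1.06 to 1.22). With markers and defensins left out of the total, Slc25a51 was under 2-fold, at 0.96. The other pyrimidine nucleotide carrier, Slc25a33, went the other way, with 7.70 CPM, against 12.1 CPM, at -0.66 (-0.83 to -0.48).

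Slc25a26, which imports the methyl donor S-adenosylmethionine, had 8.03 CPM in the KO-labelled section (6.69 to 9.60 over parts), against 20.7 CPM in the WT-labelled section (19.2 to 24.0), at -1.37 (-1.51 to -1.22). It overlaps Lrig1, at -1.34, and the reads of the pair cannot be told apart without strand. In all, 11 members overlap another gene. The mitoferrins, which bring iron in, were close between sections. Slc25a37 stood at 0.27 (0.20 to 0.34) and Slc25a28 at -0.21 (-0.27 to -0.14). The glutathione carriers Slc25a39 and Slc25a40 stood at 0.53 (0.47 to 0.58) and -0.12 (-0.40 to 0.16). Slc25a32, linked to FAD and folate transport, stood at -0.23 (-0.36 to -0.09), and Slc25a16 at 0.27 (0.13 to 0.40).

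The 5 uncoupling-protein-like and other members had 1 at least 2-fold higher and 1 at least 2-fold lower, with a median of -0.23. The shares over all symbols were 15.4% and 23.8%, with a median of -0.25. Slc25a34, whose substrate is not settled, held 882 counts, or 9.83 CPM, in the KO-labelled section (8.49 to 10.9 over parts), against 10 counts, or 0.251 CPM, in the WT-labelled section (0 to 0.441). The log2 ratio was 5.29 (4.40 to 6.36), and it rests on 10 counts in the WT-labelled section. Slc25a35, close to it in the family, went the other way, with 12.4 CPM, against 24.8 CPM, at -1.0 (-1.13 to -0.88). With the median of ratios Slc25a35 was under 2-fold, at -0.82. It overlaps Rangrf, at -1.25. Slc25a30 had 5.57 CPM, against 9.11 CPM, at -0.71 (-0.91 to -0.51). Slc25a27 held 117 and 61 counts, at -0.23 (-0.69 to 0.24), and Slc25a46, which acts in the outer membrane in mitochondrial shape, had 43.5 CPM, against 41.0 CPM. Family proteins with other symbols were Mtch2, at 1.74 (1.69 to 1.79), Mtch1, at 0.59 (0.54 to 0.63), Ucp2, at -0.33 (-0.38 to -0.28), and Ucp3, at 3.78 (1.87 to 6.86) on 62 and 2 counts.

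The pathways that the carriers serve were listed beside them, and higher and lower there mean at least 2-fold. Of all symbols, 15.4% were higher and 23.8% lower, with a median log2 ratio of -0.25. In the carnitine shuttle and beta-oxidation, 10 of 15 genes were at least 2-fold higher in the KO-labelled section and none at least 2-fold lower, with a median log2 ratio of 1.23. Hadh, a dehydrogenase of beta-oxidation, had 447 CPM in the KO-labelled section and 30.9 CPM in the WT-labelled section, and Crat, the carnitine acetyltransferase, 123 CPM, against 15.0 CPM. For the enzymes of the malate-aspartate and glycerol phosphate shuttles, 4 of 6 were higher at a median of 1.48. Mdh1, the cytosolic malate dehydrogenase, stood at 2.70 (2.66 to 2.75) and Gpd1, a glycerol phosphate dehydrogenase, at 2.88 (2.82 to 2.95).

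Of 9 enzymes of ornithine, citrulline and glutamate, 4 were higher and 2 lower, at a median of 0.70. Arg2, the mitochondrial arginase that makes ornithine, stood at 4.92 (4.66 to 5.18) and Cps1, which makes carbamoyl phosphate, at 2.18 (2.13 to 2.24). Arg1, the cytosolic arginase, stood at -3.14 (-3.48 to -2.82). Citrate export and lipogenesis had 5 of 8 higher and 1 lower, with a median of 1.33, led by Scd1, a fatty acid desaturase, at 3.89 (3.79 to 4.0). ATP synthase subunits had 4 of 14 higher and none lower at 0.84, near the 0.90 of Slc25a3.

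Over whole sections, the lists of general mitochondrial function had medians nearer 0 or below it. The median over all symbols was itself below 0, at -0.25, with 15.4% higher and 23.8% lower. The 20 genes of mitochondrial content had a median log2 ratio of 0.00, with 2 at least 2-fold higher, Cs (citrate synthase) at 1.79 (1.76 to 1.83) and Mfn2, a fusion protein, at 1.49 (1.40 to 1.58). The 8 genes of the import path for carriers (TIM22) lay at -0.38 with none past 2-fold, and 9 of haem and iron-sulfur synthesis at -0.02 with 1 lower. Of 15 other transporters of the inner membrane, 4 were higher and 1 lower at 0.48, led by Mpc1, a subunit of the pyruvate carrier, at 1.83 (1.69 to 1.97). Mitochondrial one-carbon enzymes lay at -1.18 with 5 of 7 at least 2-fold lower, such as Mthfd1l at -1.74 (-1.85 to -1.64). These lists are described by counts and medians only, and a difference between lists was not tested.

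To place the members in the tissue, each section was cut into squares with a side of 20 position units, a unit the labels do not explain. Of these, 2100 squares of the KO-labelled section and 1305 of the WT-labelled section held at least 10 barcodes and 2000 counts. A square was called villus, crypt, muscle or fat rich when its share of those markers was in the top 10% of its own section, and squares in several classes were left out. That gave 210 villus, 127 crypt, 109 muscle and 170 fat squares in the KO-labelled section, and 123 villus, 103 crypt and 105 muscle squares in the WT-labelled section. Fat markers summed to 1783 CPM in the KO-labelled section, with 9 of 9 detected, and to 160 CPM in the WT-labelled section, with 7 of 9 detected, where no fat class was formed. A square holds several cells of different types, and the classes are not alike between sections. Villus squares held a median of 59931 CPM of villus markers in the KO-labelled section, against 990 CPM in the WT-labelled section. Crypt squares held a median of 16787 CPM of Paneth cell markers, against 188626 CPM, and those of the KO-labelled section also held 21767 CPM of villus markers. Paneth cell markers were also at a median of 2114 CPM in villus squares of the KO-labelled section, against 49105 CPM in those of the WT-labelled section, and at 7339 CPM in muscle squares, against 75752 CPM. The part of this in the contrasts was not tested.

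As a sum, the family had 3332 CPM in villus, 2787 CPM in crypt, 2724 CPM in muscle and 2819 CPM in fat squares of the KO-labelled section. In the WT-labelled section it had 1853 CPM in villus, 1175 CPM in crypt and 1523 CPM in muscle squares. Villus squares were the highest in both sections, and the lowest class of the KO-labelled section was above the highest of the WT-labelled section. With intervals apart from those of every other class, 9 members were highest in villus squares of the KO-labelled section (7.89% of all symbols), 2 in muscle (3.75%) and 1 in fat (1.9%). For the WT-labelled section these were 9 in villus (12.9% of all symbols) and 5 in muscle squares (6.7%). Crypt squares were so for 0 members in the KO-labelled section (1.19% of all symbols) and 0 in the WT-labelled section (0.333%). These calls use CPM by total counts, and intervals part more readily for symbols with many counts. Slc25a39 was 1 of the 9 in villus squares of the WT-labelled section. Its villus over crypt ratio there, 0.39, turned to -0.17 and -0.064 under the 2 other scalings. Slc25a3, Slc25a15, Slc25a22 and Slc25a24 were highest in villus squares, and Slc25a4 and Slc25a23 in muscle squares, in both.

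**Figure D3:**
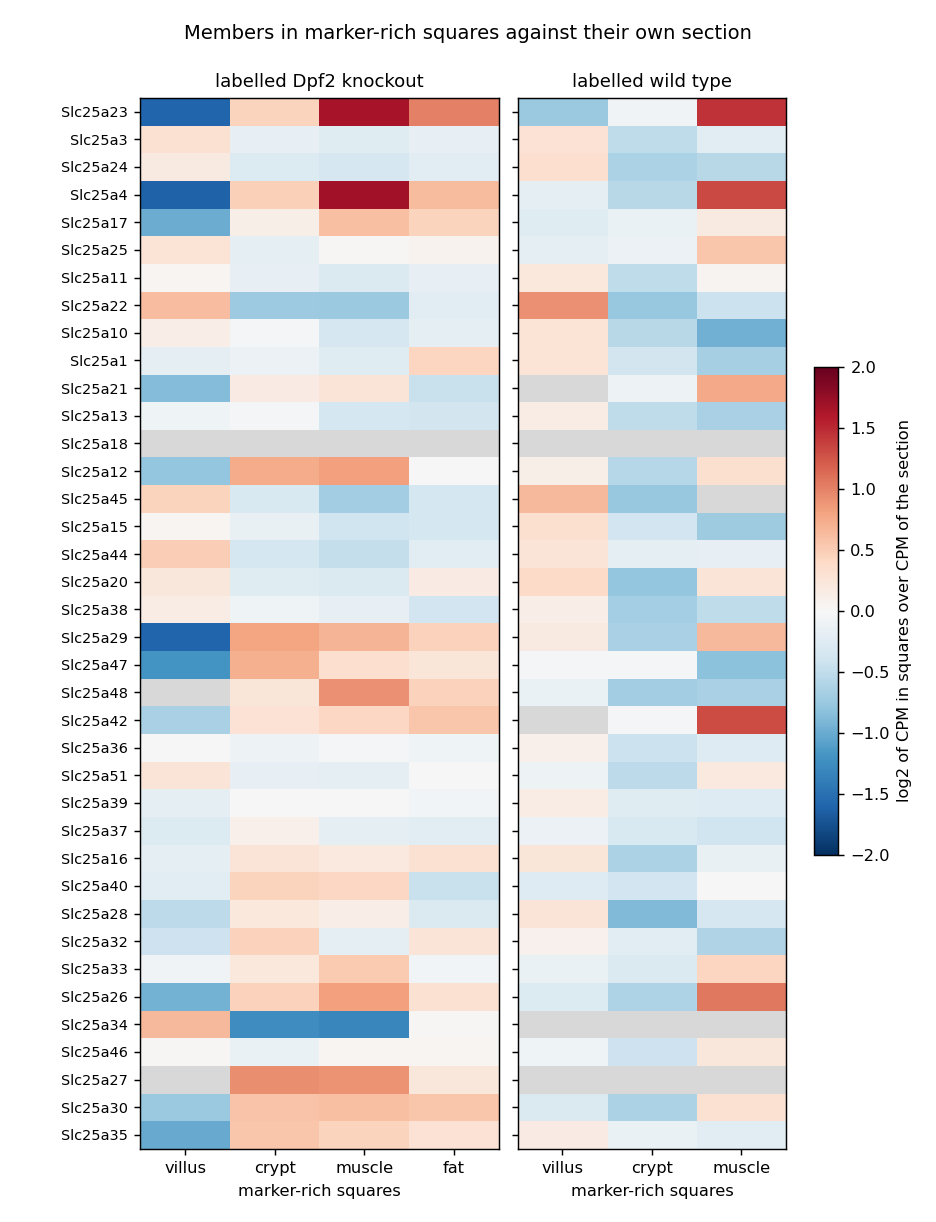
Log2 of the CPM of 38 members in villus, crypt, muscle and fat rich squares over its CPM in the whole section, for the KO-labelled section (left) and the WT-labelled section (right, no fat class). Grey cells hold fewer than 10 counts. Slc25a4 and Slc25a23 are highest in muscle squares of both sections, and Slc25a22 in villus squares of both.

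Villus squares of the KO-labelled section were set over its crypt squares for 36 members with 20 or more counts. Of these, 2 were at least 2-fold higher in villus squares, against 5.03% of all symbols, and 10 at least 2-fold lower, against 32.3% of all symbols. The median was -0.25, beside -0.55 over all symbols. Scaling by the median of ratios adds 0.24 to every ratio of this contrast, and leaving the marker genes out of the total adds 0.02. With the median of ratios Slc25a1, Slc25a13 and Slc25a39 turned above 0. Under all 3 scalings 2 members were at least 2-fold higher and 8 at least 2-fold lower. Slc25a34 had 15.5 CPM in villus and 4.15 CPM in crypt squares, a log2 ratio of 1.90 (1.22 to 2.65). Slc25a22, the glutamate carrier, had 239 CPM, against 93.2 CPM, at 1.36 (1.21 to 1.50), and Slc25a44 104 CPM, against 58.6 CPM, at 0.84 (0.65 to 1.03). Slc25a45, so far apart between the sections, had 246 CPM in villus and 146 CPM in crypt squares, at 0.76 (0.64 to 0.88), and Slc25a3 stood at 0.47 (0.42 to 0.53). At the other end, Slc25a29 had 1.52 CPM in villus and 7.89 CPM in crypt squares, at -2.38 (-3.32 to -1.50). Slc25a4 stood at -2.09 (-2.34 to -1.85) and Slc25a23 at -2.03 (-2.65 to -1.43). Crypt squares of the KO-labelled section held a median of 3576 CPM of muscle markers, against 592 CPM in its villus squares, and the part of this in the low villus ratios of Slc25a4 and Slc25a23 was not tested.

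In the WT-labelled section the same contrast had 35 members, with 4 at least 2-fold higher in villus squares, against 11.7% of all symbols, and 1 at least 2-fold lower, against 1.38% of all symbols. The median was 0.44, beside 0.53 over all symbols, and it turned to -0.12 with the median of ratios and to -0.011 with the marker genes left out of the total. Those scalings move every ratio of this contrast by -0.56 and -0.45, and 14 members changed sign. Slc25a22 stayed above 0 under each scaling, with 68.6 CPM in villus and 21.6 CPM in crypt squares, a log2 ratio of 1.66 (1.34 to 2.0). Slc25a20 had 26.1 CPM, against 11.7 CPM, at 1.15 (0.68 to 1.65), and Slc25a28 86.3 CPM, against 39.0 CPM, at 1.14 (0.88 to 1.41). Both also stayed above 0 under each scaling. The lowest 3 with 50 or more counts were Slc25a17 at -0.10 (-0.55 to 0.34), Slc25a25 at -0.08 (-0.44 to 0.28) and Slc25a47 at 0.00 (-0.74 to 0.73), and none is set apart from 0 at this depth. Slc25a42 was the member at least 2-fold lower, on 7 and 18 counts. Of 34 members measured in both sections, 16 were below 0 in the KO-labelled section and above 0 in the WT-labelled section, against 63.6% of all symbols. Both intervals lay apart from 0 for 6 of them, against 30.7% of all symbols, and the reverse held for 0 members and 0.0631% of all symbols.

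Squares were also ordered by their villus marker level and cut into 10 groups of about equal number. Of 31 members with at least 500 counts in the KO-labelled section, 11 were highest in the group with the least villus marker, against 45.3% of all symbols with as many counts, and 9 in the group with the most, against 17.8%. Slc25a22 had 74.9 CPM in the lowest group and 239 CPM in the highest. Slc25a45 had 105 CPM in the lowest and 246 CPM in the highest, and Slc25a44 48.1 CPM and 104 CPM. Slc25a4 had 153 CPM in the lowest and 20.5 CPM in the highest, and Slc25a23 23.7 CPM and 3.51 CPM. Slc25a22, Slc25a45 and Slc25a4 changed by steps in 1 direction across all 10 groups. Slc25a15 reached 384 CPM in the ninth group and 337 CPM in the highest. Muscle markers had a median of 4239 CPM in the lowest group and 592 CPM in the highest. In the WT-labelled section, 2 of 25 members were highest in the lowest group, against 15.1% of all such symbols, and 8 in the highest, against 21.0%. There Slc25a22 had 28.3 CPM in the lowest and 66.1 CPM in the highest, and Slc25a4 97.7 CPM and 56.9 CPM. Slc25a48, with at least 500 counts only in the WT-labelled section, was higher in the middle, with 28.9 CPM in the lowest group, 43.0 CPM in the sixth and 31.7 CPM in the highest.

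**Figure D4:**
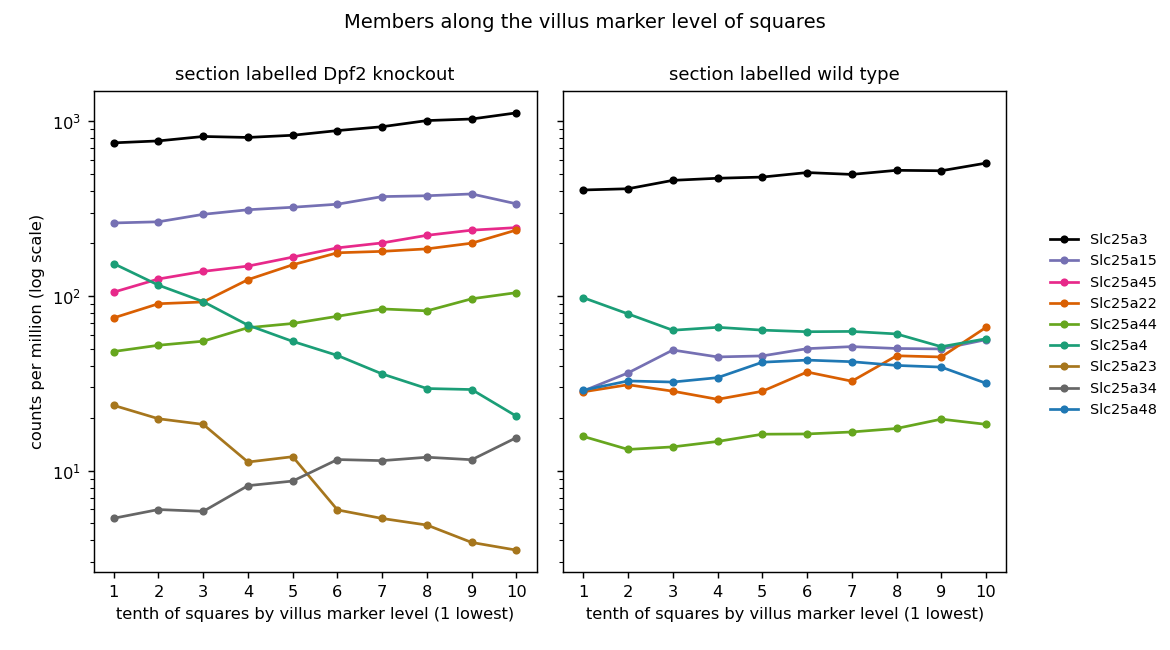
CPM on a log scale of members across 10 groups of squares ordered by villus marker level (1 lowest), the KO-labelled section left and the WT-labelled section right, for those of the 9 named members with at least 500 counts in the section. In the KO-labelled section, Slc25a22 and Slc25a45 climb towards the villus end while Slc25a4 and Slc25a23 descend.

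Muscle squares of the KO-labelled section were set over all its other squares. Of 39 members, 4 were at least 2-fold higher in muscle squares, against 16.6% of all symbols, and 1 at least 2-fold lower, against 3.35% of all symbols, with a median of 0.03 beside 0.25. Slc25a4 had 201 CPM in muscle and 46.2 CPM in other squares, at 2.12 (2.02 to 2.23). Slc25a23 had 33.0 CPM, against 7.97 CPM, at 2.05 (1.78 to 2.31), and Slc25a27, an uncoupling-protein-like member known from brain, 2.43 CPM, against 1.12 CPM, at 1.13 (0.07 to 2.03) on 11 counts in muscle squares. Slc25a48 stood at 1.0 (0.13 to 1.78) on 15 counts, and with the median of ratios Slc25a27 and Slc25a48 were under 2-fold, at 0.93 and 0.81. The lowest were Slc25a34 at -1.37 (-2.14 to -0.71), Slc25a22 at -0.81 (-0.96 to -0.67) and Slc25a45 at -0.75 (-0.88 to -0.62), which were also the members with high villus values.

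Muscle squares of the WT-labelled section gave 37 members, with 4 at least 2-fold higher, against 9.5% of all symbols, and 1 at least 2-fold lower, against 8.01% of all symbols, and a median of -0.19 beside -0.12. Slc25a4 had 166 CPM in muscle and 58.9 CPM in other squares, at 1.50 (1.34 to 1.65), and Slc25a23 12.8 CPM, against 4.06 CPM, at 1.66 (1.06 to 2.22). Slc25a42 stood at 1.48 (0.77 to 2.13), and Slc25a26 had 43.2 CPM, against 18.9 CPM, at 1.19 (0.89 to 1.49). In the KO-labelled section these last 2 stood at 0.46 (0.09 to 0.82) and 0.97 (0.58 to 1.35). The lowest were Slc25a10 at -1.03 (-1.51 to -0.59), which was under 2-fold with the median of ratios (-0.85), Slc25a47 at -0.89 (-1.91 to -0.03) and Slc25a15 at -0.77 (-1.13 to -0.43). Muscle squares held a median of 8915 CPM of muscle markers in the KO-labelled section and 3539 CPM in the WT-labelled section.

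Fat squares existed only in the KO-labelled section. Of 39 members, 1 was at least 2-fold higher in fat than in other squares, against 8.62% of all symbols, and 0 at least 2-fold lower, against 3.19% of all symbols, with a median of 0.01 beside 0.07. That member was Slc25a23, with 21.3 CPM in fat and 8.08 CPM in other squares, at 1.40 (1.14 to 1.65). Slc25a4 stood at 0.96 (0.84 to 1.07). Fat squares also held a median of 2406 CPM of muscle markers, and the part of these in the values of Slc25a4 and Slc25a23 was not tested. The lowest were Slc25a21 at -0.49 (-1.38 to 0.30), Slc25a40 at -0.45 (-1.16 to 0.19) and Slc25a13 at -0.42 (-0.54 to -0.30).

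The citrate carrier Slc25a1 was the member highest in fat squares apart from the other classes, with 174 CPM, against 113 CPM in villus, 119 CPM in crypt and 109 CPM in muscle squares. Over other squares its log2 ratio was 0.46 (0.38 to 0.55). Genes of citrate export and lipogenesis, the pathway it feeds, had a median of 1.49 in fat squares, with 5 of 8 at least 2-fold higher. Over all symbols the median was 0.07, with 8.62% at least 2-fold higher. Fasn, the fatty acid synthase, had 426 CPM in fat and 34.2 CPM in other squares, at 3.64 (3.57 to 3.71), and Scd1 stood at 4.34 (4.30 to 4.38). Acly, which cleaves exported citrate, stood at 1.84 (1.71 to 1.96). None of these enzymes was used to choose fat squares. Ucp3, a relative of the family known from muscle and brown fat, had 36 counts in fat squares and 18 in all other squares, at 4.28 (3.43 to 5.19).

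Sections were then compared within squares of 1 class. In crypt squares 37 members were measured, with 14 at least 2-fold higher in the KO-labelled section, against 28.1% of all symbols, and 2 at least 2-fold lower, against 8.28% of all symbols. The median was 0.78, beside 0.46 over all symbols, and 0.24 and 0.25 under the 2 other scalings, which move every ratio of this contrast by -0.55 and -0.53. Slc25a45 had 146 CPM in crypt squares of the KO-labelled section and 2.23 CPM in those of the WT-labelled section, at 6.03 (5.19 to 7.04). Slc25a15 had 294 CPM, against 35.6 CPM, at 3.05 (2.82 to 3.28), and Slc25a11 154 CPM, against 27.9 CPM, at 2.46 (2.20 to 2.74). Slc25a34 held 20 counts, against 0, a ratio of 6.84 by a floor of 3 counts over the crypt squares of the WT-labelled section. That ratio is not a lower bound, as the intervals of its levels were 2.54 to 6.41 CPM and 0 to 0.746 CPM. Slc25a34 entered the contrast through the KO-labelled section alone, so a ratio past 2-fold was fixed by its entry. Without it 13 members were at least 2-fold higher. Slc25a45 (702 and 11 counts) and Slc25a42 (68 and 18) also held 20 or more counts only in the KO-labelled section. Slc25a48 (10 and 111) did so only in the WT-labelled section. Slc25a48 stood at -3.43 (-4.53 to -2.50), Slc25a25 at -1.50 (-1.98 to -1.04) and Slc25a17 at -0.80 (-1.30 to -0.32).

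In villus squares 36 members were measured, with 11 at least 2-fold higher, against 15.0% of all symbols, and 9 at least 2-fold lower, against 39.5% of all symbols, at a median of 0.11 beside -0.60. Slc25a34 stood at 5.92 (3.42 to 11.23) on 163 counts and 1, Slc25a45 at 5.39 (4.80 to 6.05) and Slc25a15 at 2.53 (2.34 to 2.73). Slc25a48 had 0.475 CPM in villus squares of the KO-labelled section and 33.3 CPM in those of the WT-labelled section, at -6.13 (-7.78 to -4.87). Slc25a29 stood at -2.82 (-3.75 to -1.96) and Slc25a35 at -2.18 (-2.64 to -1.72). Of the members past 2-fold, Slc25a34 and Slc25a42 (77 and 7 counts) held 20 or more counts only in the KO-labelled section. Slc25a29 (16 and 42), Slc25a47 (17 and 30) and Slc25a48 (5 and 130) did so only in the WT-labelled section.

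In muscle squares 36 members were measured, with 10 at least 2-fold higher, against 19.3% of all symbols, and 4 at least 2-fold lower, against 11.2% of all symbols, at a median of 0.48 beside 0.19. The 2 other scalings move every ratio of this contrast by -0.29 and -0.19, and 6 members changed sign. Under all 3 scalings 8 members were at least 2-fold higher and 4 at least 2-fold lower. Slc25a45 stood at 4.96 (4.03 to 6.10) on 507 counts and 9, Slc25a15 at 3.13 (2.78 to 3.49) and Slc25a10 at 2.22 (1.75 to 2.71). The lowest were Slc25a48 at -2.81 (-3.73 to -1.97), Slc25a25 at -1.98 (-2.45 to -1.51) and Slc25a26 at -1.61 (-2.08 to -1.15). Of the members named here, Slc25a45 held 20 or more counts only in muscle squares of the KO-labelled section. Slc25a48 (15 and 58 counts) did so only in those of the WT-labelled section. Slc25a4 had 201 CPM in muscle squares of the KO-labelled section and 166 CPM in those of the WT-labelled section, at 0.28 (0.11 to 0.45), and this turned to -0.011 with the median of ratios.

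Across the 3 classes, 35 members were measured in each. Of these, 17 were higher in the KO-labelled section in all 3, against 29.8% of all symbols so measured, 6 were lower in all 3, against 24.1%, and 12 were mixed. With the median of ratios 18 were higher (28.5% of all symbols), 12 lower (41.0%) and 5 mixed. Slc25a10, Slc25a11, Slc25a15, Slc25a20, Slc25a22, Slc25a36, Slc25a44 and Slc25a45 were at least 2-fold higher in all 3 classes. These 8 stand against 10.3% of all symbols. Slc25a48 was at least 2-fold lower in all 3, as were 6.06% of all symbols, and 10.1% with the median of ratios. With the median of ratios 7 of those 8 remained, the exception being Slc25a20, against 8.66% of all symbols. The 20 genes of mitochondrial content had medians of 0.78 in crypt squares, -0.68 in villus and 0.67 in muscle squares. The members had 0.78, 0.11 and 0.48, and all symbols 0.46, -0.60 and 0.19. In crypt squares 7 of the 20 were at least 2-fold higher, against 28.1% of all symbols. Villus markers differed between sections inside these classes too, with medians of 21767 CPM in crypt and 17678 CPM in muscle squares of the KO-labelled section, against 125 CPM and 102 CPM in those of the WT-labelled section, and their part in the ratios was not tested.

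**Figure D5:**
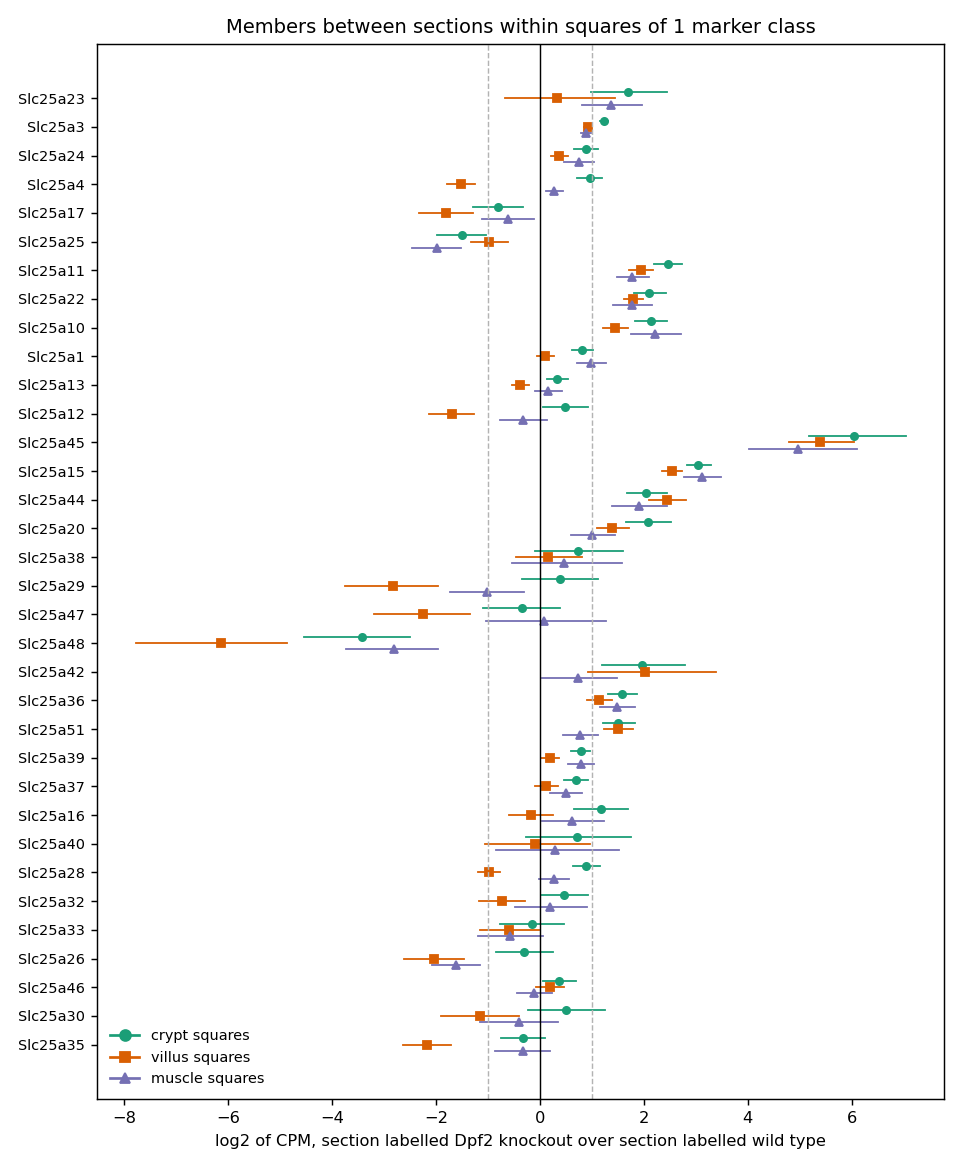
Log2 ratio of CPM, the KO-labelled section over the WT-labelled section, within crypt (circles), villus (squares) and muscle (triangles) rich squares, with exact 95% counting intervals, for 34 of the 35 members measured in all 3. Dashed lines mark 2-fold. Slc25a45 lies at 4.96 or more and Slc25a48 at -2.81 or less in every class, while Slc25a4 and Slc25a12 differ in sign between classes. For Slc25a12 this depends on the scaling. Its crypt value of 0.49 turns to -0.057 with the median of ratios and to -0.040 with markers and defensins left out of the total.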

How the data were processed

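Spatial libraries were made from fresh frozen sections of mouse intestine and sequenced, per the labels' protocols. The deposited files are counts, whole numbers per gene and barcode made by the authors, with barcode positions. Per the submitters' processing notes the build is GRCm38. The aligner, the strand setting and whether reads were collapsed by molecular identifier were not given in the sources used here.

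Members and lists were chosen with earlier results of these data known. From the deposited counts, CPM per section, per part and per group of squares were computed with Python 3.11.15, numpy 2.4.6, pandas 2.3.3 and scipy 1.17.1, and plotted with matplotlib 3.10.9. Counts of a symbol over several features were summed. A symbol entered a contrast with 20 or more counts over both sides, so it could enter through the side where it was high. With 1 section a genotype there is no replicate, so no test was run. Intervals of a level are exact Poisson and those of a log2 ratio exact binomial, at 95%, and cover counting error only. A count of 0 was given a floor of 3 counts. Ratios were checked on simulated counts. Members named with full values were the 5 with the most counts, the 10 with the largest ratio between sections, and per contrast of squares the highest and lowest 3 with 50 or more counts. Pathway genes named were the 2 with the most counts per list and up to 3 with the largest ratio. Any other was chosen after its values were seen. The values of 1 member, which stays in the sums, counts and medians, are not reported here. Alternatives were scaling by the median of ratios over symbols with 200 or more counts, a total without markers and defensins, members with 200 or more counts, barcodes with 300 or more counts, kept squares alone, other square sides, other shares of squares, and crypt squares chosen by dividing-cell markers.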

Additional observations from a re-analysis of the deposited data

Results flagged for a closer look

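For 6 of the 34 members with 20 or more counts in both contrasts, the interval of the log2 ratio of villus over crypt squares lay below 0 in the KO-labelled section and above 0 in the WT-labelled section. This held for 30.7% of all symbols so measured, a larger share than among the members, and none of these differences between the sections was tested. The medians over all symbols were -0.55 in the KO-labelled section and 0.53 in the WT-labelled section. By sign alone, 16 of the 34 members and 63.6% of all symbols had this pattern. Slc25a4 stood at -2.09, against 0.38. Slc25a12 stood at -1.51, against 0.68. Slc25a16 stood at -0.46, against 0.88, and Slc25a28 at -0.73, against 1.14. Slc25a29 stood at -2.38, against 0.83, and Slc25a39 at -0.20, against 0.39. With the median of ratios Slc25a4 stood at -1.85, against -0.18, so its sign no longer differed between the sections, and Slc25a39 turned to 0.04, against -0.17. The other 4 kept opposite signs under each scaling. Crypt squares of the KO-labelled section held a median of 3576 CPM of muscle markers, against 723 CPM in those of the WT-labelled section, and the part of this in the ratios was not tested.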

How the results depend on the processing

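No paired analysis was possible because each genotype has 1 section. Of the main values under the alternatives, 70 stayed, 5 moved and 3 reversed, and of the values for single members 132 stayed and 49 moved. The members at least 2-fold lower in the KO-labelled section numbered 3 with the median of ratios, against 7. The villus over crypt median in the WT-labelled section, 0.44, reversed to -0.12 with the median of ratios, to -0.011 with markers and defensins left out of the total, and to -0.16 with crypt squares chosen by dividing-cell markers. Under the same 3 settings the median of knockout over wild type in crypt squares, 0.78, was 0.24, 0.25 and 0.20. In muscle squares that median was 0.94 over the 18 members with 200 or more counts, against 0.48. The cause was not tested. With 1 common cut for both sections, the KO-labelled section had no crypt squares and the WT-labelled section no villus squares, so those contrasts gave no value. Members with under 50 counts, such as Slc25a18, have intervals too wide to give a direction at this depth. With 1 section a genotype, differences between animals, sections and stretches of gut cannot be told apart from genotype.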

Other observations

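Squares were also taken from the top 10% of each section for 17 marker lists, a choice made after the values were seen. Slc25a48, low in the KO-labelled section, had 5.21 CPM in its squares rich in enteric neuron and glia markers, against 1.40 CPM in the other squares, a log2 ratio of 1.89 (1.36 to 2.40) on 45 and 113 counts. In the WT-labelled section Slc25a48 had 50.1 CPM in squares rich in enteroendocrine markers, against 35.0 CPM in the others, at 0.52 (0.28 to 0.74). There it was lower in squares rich in Paneth cell markers, at -0.99, with 19.9 CPM, against 39.5 CPM. In those squares the median was also below 0 over all symbols, at -0.52, and over the members, at -0.54.

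Slc25a35 stood at 1.07 (0.85 to 1.29) in squares of the KO-labelled section rich in dividing crypt cell markers. The glutamate carrier Slc25a22 stood at -1.17 in the same squares and at 0.76 in squares rich in goblet cell markers. Goblet cell markers of that section summed to 9153 CPM in villus squares and 5910 CPM in crypt squares. The part of villus cells in the value of Slc25a22 was not tested. In the WT-labelled section the mitoferrin Slc25a37 stood at 0.59 (0.40 to 0.77) in squares rich in plasma cell markers. Slc25a4 and Slc25a23 stood at 1.81 and 1.6 in squares of the KO-labelled section rich in fibroblast markers, and such squares can hold muscle too.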
